A study of Mus musculus with 2 samples.

Results

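The junctional adhesion molecules and their scaffold partners were followed here as 9 of the 23284 gene symbols listed for each library. They were chosen by name, with earlier results of these data known. The receptors, 4 genes of the immunoglobulin superfamily at the cell surface, are F11r (JAM-A), Jam2 (JAM-B), Jam3 (JAM-C) and Cxadr (CAR, the coxsackievirus and adenovirus receptor). The scaffolds, 5 genes for cytoplasmic proteins with PDZ domains, are Magi1, Magi2, Magi3, Tjp1 (ZO-1) and Pard3 (PAR-3). RNA-seq was performed on LSK CD48– cells of the E14.5 fetal liver (FL), with 1 library from WT fetuses and 1 from ESAM-null fetuses. LSK CD48– cells are cells that lack lineage markers and CD48 and carry Sca-1 and c-Kit, a fraction rich in hematopoietic stem cells (HSCs), and ESAM is the endothelial cell-selective adhesion molecule, a relative of the JAM proteins. The ESAM-null line was a conventional knockout, which lacks the gene in every tissue from the start of development, and the study compared the libraries to learn how loss of ESAM affects gene expression in FL HSCs. How many fetuses and cells went into a library is not given in the sources. The labels describe the sorted cells as incubated in a methylcellulose colony medium, whereas the paper's text treats the RNA as that of sorted FL cells, and the values are given here as those of the sorted cells.

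JAM proteins, CAR and ESAM bind one another or themselves across cell contacts through their outer immunoglobulin domains. JAM-A, JAM-B and JAM-C also bind integrins on neighboring cells. Inside the cell, the last few residues of each receptor dock into PDZ domains of scaffolds: JAM proteins bind PAR-3 and ZO-1, CAR binds MAGI-1 and ZO-1, and ESAM binds MAGI-1. These scaffolds organize tight junctions and cell polarity in epithelium and endothelium, and JAM-A, JAM-C and ESAM are also found on hematopoietic stem and progenitor cells.

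The end of each receptor's coding sequence, which encodes the PDZ-binding tail of the full-length forms, is shown first, because it is the link between the receptors and the scaffolds measured below. Each sequence is the last 30 coding bases including the stop codon, written 5′ to 3′ on the coding strand of GENCODE M21 transcripts (GRCm38, the build also called mm10). Capitals mark the 4 codons before the stop.
F11r-201: ttcaaacagacctcgTCGTTCCTGGTGtga
Jam2-202: ttcaagcacacaaaaTCCTTTATAATTtaa
Jam3-201: ttcagacacaaatcgTCCTTTGTTATCtga
Cxadr-201: gcacagagcaaggacGGGTCTATAGTAtag
Cxadr-202: tacaagaccgatggcATTACAGTGGTAtaa
Cxadr-204: gagttacaaggtggcAGGGAAGGTGGCtag
Esam-201: gcacagagtcaggctGGGTCTCTTGTGtga
The stop codons lie at chr1:171463092-171463094 for F11r-201, chr16:84822817-84822819 for Jam2-202, chr9:27098366-27098368 for Jam3-201, chr16:78336450-78336452 for Cxadr-201, chr16:78359250-78359252 for Cxadr-202, chr16:78329236-78329238 for Cxadr-204 and chr9:37537780-37537782 for Esam-201. Jam2 and Jam3 shared 18 of the 27 bases before the stop and 9 of the 12 in capitals. F11r shared 17 of 27 bases with Jam3, 15 with Jam2 and 9 with Esam, but over the capitals alone it shared 7 of 12 with Esam and 6 of 12 with each of Jam2 and Jam3. Cxadr-201 and Esam had 20 of 27 bases and 9 of 12 capitals in common. Cxadr-202 ends in another exon, and it shared 12 of 27 bases with Cxadr-201 and 9 of 27 bases and 4 of 12 capitals with Esam. Cxadr-204 is a shorter form with 164 codons before the stop, and its end was not compared with the others. The deposited values are per gene, so they do not divide Cxadr reads between its forms.

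The authors deposited values in FPKM, which counts fragments per kilobase of transcript relative to library size. Such values can be compared between genes because they are per length, and pairs of values are given as WT then ESAM-null. The WT library had 14305 genes above 0 and the ESAM-null library 13039. Read numbers were recovered approximately from the steps between low values, about 9219880 in WT and 11224800 in ESAM-null. Pard3, at 0 in both libraries, is given below with the level that 3 reads would have had, and for the other genes named as at 0 in both that level lay between 0.0479 and 0.323 FPKM. Ratios are plain ratios of FPKM, with exact (Clopper-Pearson) 95% intervals from the approximate reads. The intervals cover counting error of reads only, and leave out differences between fetuses and between library preparations. Where reads are PCR copies, which are not independent molecules, the intervals are too narrow even for counting error. With 1 library per genotype no difference below has a replicate check, and no p-value can be given. In bulk samples, fewer cells of a type and less RNA per cell cannot be told apart. None of 152 genes for proteasome, RNA polymerase II, Mediator and mitochondrial ribosomal subunits was at 0 in either library.

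Esam, the deleted gene, had 117.6 FPKM in WT against 12.1 FPKM in ESAM-null. This was lower by 9.69-fold (8.38 to 11.3, from about 1831 and 205 reads). The gene lies on the plus strand at chr9:37528078-37538319, and its value covers the whole gene without showing which exons the remaining reads came from. Markers of HSCs were present in both libraries. All 11 were measured and none differed by 2-fold. Most had a mean of 30 FPKM or more, where few genes of any kind did. Among all 2352 genes from 30 to 100 FPKM, 0.723% were lower and 1.45% higher by 2-fold or more. The summed level of the markers was 963 FPKM in the WT library and 929 in the ESAM-null library, and Cd34 (230.0 and 240.3 FPKM) was the most abundant.

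Among the receptors, Jam3 and F11r were abundant and Jam2 and Cxadr were low in both libraries. Jam3, which encodes JAM-C, a partner of JAM-B and of the integrin Mac-1, had 34.8 FPKM in WT against 41.4 FPKM in ESAM-null. That is 1.19-fold higher in ESAM-null (1.06 to 1.33, about 567 and 732 reads), the highest level of the 9 genes in each library and above 85.9% and 87.4% of all gene symbols. Jam3 lies on the minus strand at chr9:27097384-27155421, on the same chromosome as Esam.

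F11r encodes JAM-A, which binds itself and the integrin LFA-1. It had 23.4 FPKM in the WT library and 25.8 in the ESAM-null library, a ratio of 1.10 (0.981 to 1.25, about 507 and 608 reads), and lies on the plus strand at chr1:171437535-171464603. The counting interval of F11r includes 1, and that of Jam3 does not. The direction of both depends on scaling: the FPKM of all genes sum to 751784 in WT and 911736 in ESAM-null, and when each library was rescaled to the same total the log2 ratio went from 0.14 to -0.14 for F11r and from 0.25 to -0.03 for Jam3. Within a library, where scaling has no effect, Jam3 was 1.49 times F11r in WT and 1.60 times F11r in ESAM-null.

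Jam2 encodes JAM-B, the heterophilic partner of JAM-C, best known from endothelium. It had 1.33 FPKM in WT against 1.16 FPKM in ESAM-null, with about 52 and 49 reads, and its ratio of 0.872 has an interval from 0.576 to 1.31. Jam2 lies on the plus strand at chr16:84774123-84825928. Both libraries thus listed far less of JAM-B than of JAM-C, with Jam3 at 26.1 times the Jam2 level in WT and 35.6 times in ESAM-null.

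Cxadr, on the plus strand at chr16:78301489-78359774, had 2.04 FPKM in the WT library and 1.07 in the ESAM-null library. The 1.91-fold lower value rests on about 28 and 16 reads, and the interval of the ratio, 0.266 to 1.01, includes 1. The levels of Cxadr and Esam were far apart in WT and less so in ESAM-null. Whether the Cxadr interval includes 1 depends on the transcript length assumed, since its upper bound on the log2 scale ranged from -0.47 to 0.16 over the lengths tried.

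**Figure D1:**
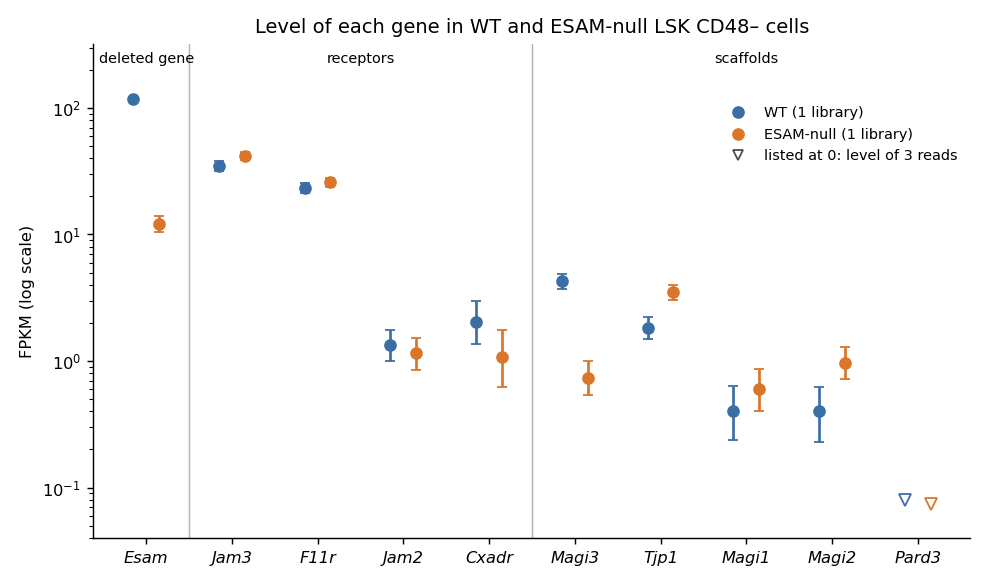
FPKM of Esam and the 9 genes on a log axis, with 1 point per library and 95% counting intervals as bars. Jam3 and F11r lie at 23.4 FPKM or above in both libraries, Magi3 is at 4.27 FPKM in WT against 0.735 FPKM in ESAM-null, Tjp1 is at 1.83 and 3.48 FPKM, and Pard3 is listed at 0 in both, shown by open triangles at the level of 3 reads (0.0799 and 0.0736 FPKM).

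Among the scaffolds, Magi3 was lower and Tjp1 higher in ESAM-null, and the remaining genes were at or under 1 FPKM. Magi3, the most abundant scaffold in WT, belongs to the MAGI family of membrane-associated guanylate kinases with inverted domain order. It had 4.27 FPKM in the WT library and 0.735 in the ESAM-null library, which is 5.81-fold lower (4.14 to 8.17), a log2 ratio of -2.54, from about 228 and 43 reads. The counting intervals of its levels do not overlap, running from 3.73 to 4.86 FPKM in WT and from 0.537 to 0.999 FPKM in ESAM-null. Magi3 was above 61.0% of all gene symbols in WT and above 50.6% in ESAM-null, and it lies on the minus strand at chr3:104013259-104220374.

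Tjp1 encodes ZO-1, the tight junction scaffold that ties JAM proteins, claudins and occludin to actin. It had 1.83 FPKM in WT against 3.48 FPKM in ESAM-null, 1.90-fold higher (1.497 to 2.44), from about 101 and 209 reads. Its counting intervals, 1.49 to 2.22 FPKM and 3.03 to 3.995 FPKM, do not overlap either, but the ratio is under 2-fold. Tjp1 lies on the minus strand at chr7:65296165-65527781.

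The other MAGI genes were low. Magi1, the scaffold known to bind ESAM, had 0.405 FPKM in the WT library and 0.597 in the ESAM-null library, with about 18 and 29 reads, and its ratio of 1.47 (0.797 to 2.84) has an interval that includes 1. Magi2, best known from neurons and kidney podocytes, had 0.402 FPKM in WT against 0.971 FPKM in ESAM-null, 2.41-fold higher (1.40 to 4.64) from about 17 and 46 reads. It was under 1 FPKM in both libraries and so was not counted among the genes tested. With a lower limit of 0.1 FPKM it would be counted as higher, among 14115 genes of which 20.3% were lower and 8.6% higher by 2-fold or more. Magi1 lies on the minus strand at chr6:93675455-94283917 and Magi2 on the plus strand at chr5:19227036-20704792.

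Pard3, on the plus strand at chr8:127063893-127612286, encodes PAR-3, the polarity scaffold that JAM tails recruit. It was listed at 0 FPKM in both libraries, where 3 reads would have given 0.0799 FPKM in the WT library and 0.0736 in the ESAM-null library. No fold can be given for it.

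In WT the order of levels was Jam3, F11r, Magi3, Cxadr, Tjp1, Jam2, Magi1, Magi2 and Pard3, and neighbors from Cxadr to Jam2, and Magi1 with Magi2, had overlapping counting intervals. In ESAM-null the order was Jam3, F11r, Tjp1, Jam2, Cxadr, Magi2, Magi3, Magi1 and Pard3, and every neighboring pair from Jam2 to Magi1 overlapped. Magi3 thus moved from above the overlapping low genes in WT to among them in ESAM-null. Tjp1 moved the other way.

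Of the 9 genes, 6 had at least 1 FPKM in at least 1 library and were held against a 2-fold threshold, called tested below although no statistical test was possible, and of these 1 was lower (Magi3) and 0 were higher. Over all 12066 genes tested in the same way, 12.8% were lower in ESAM-null by 2-fold or more and 7.42% were higher, so 1 of 6 is near the background. The call of Magi3 was lost with a filter of 5 FPKM in at least 1 library or of 1 FPKM in both, since its levels are low, and after rescaling to equal totals Cxadr was past 2-fold lower as well. The median log2 ratio was -0.03 over the 6 genes and -0.00024 over all genes tested. The shares also depend on level: among 1796 genes with a mean of both libraries from 1 to 3 FPKM, where Magi3, Tjp1, Jam2 and Cxadr lie, 30.0% were lower and 19.7% higher. From 30 to 100 FPKM, where Jam3 lies, 0.723% were lower and 1.45% higher, and from 10 to 30 FPKM, where F11r lies, 5.3% were lower and 2.84% higher. The median log2 ratio was -0.29 over the genes from 1 to 3 FPKM, -0.07 from 10 to 30 FPKM and 0.10 from 30 to 100 FPKM.

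Transcript length was looked at because Magi3 (5912 bases) and Tjp1 (6102 bases) have long transcripts. Among the 417 genes with transcripts of at least 5000 bases and a mean of 1 to 3 FPKM, 31.4% were at least 2-fold lower and 6.24% at least 2-fold higher. Over all levels, 1612 tested genes had transcripts of that length, and 18.5% of them were lower and 4.03% higher. Tjp1 therefore lay on the side that fewer long transcripts took, at 1.90-fold. The part of transcript length in these values was not tested.

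**Figure D2:**
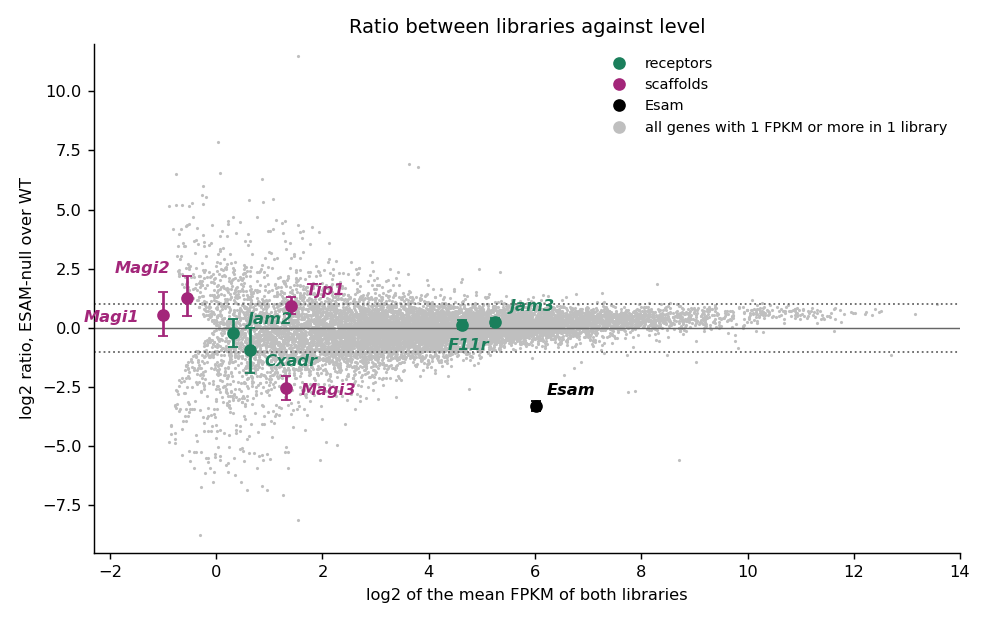
ESAM-null over WT ratio on the log2 scale against the log2 mean FPKM of both libraries, with grey points for genes with 1 FPKM or more in 1 library, dotted lines at 2-fold and bars for 95% counting intervals; Magi1 and Magi2 are drawn although both are under 1 FPKM, and genes at 0 in 1 library are not drawn. Jam3 (log2 0.25) and F11r (0.14) lie in the narrow part of the cloud, and Magi3 (-2.54) and Tjp1 (0.93) in the wide part.

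Summed over the 4 receptors, the level was 61.5 FPKM in WT against 69.5 FPKM in ESAM-null, a ratio of 1.13 (log2 0.18). Jam3 made up 56.5% of this sum in WT and 59.6% in ESAM-null, and F11r 38.0% and 37.2%, so the makeup of the 4 receptors was close in both libraries. With rescaling to equal totals the log2 ratio of the sum was -0.10, so its direction is set by the scaling.

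With Esam added, the sum was 179.1 FPKM in the WT library and 81.6 in the ESAM-null library, which is lower by 2.19-fold. Esam accounted for 65.6% of it in WT and 14.9% in ESAM-null. The share of Jam3 was 19.4% in WT and 50.7% in ESAM-null, and that of F11r 13.1% and 31.7%. Esam was 3.38 times Jam3 in WT and 0.293 times Jam3 in ESAM-null, while neither Jam3 nor F11r differed by more than 1.19-fold between the libraries.

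The 5 scaffolds summed to 6.91 FPKM in WT against 5.79 FPKM in ESAM-null, 1.19-fold lower (log2 -0.25), far below the receptors in both. The small net difference combined a lower Magi3 with a higher Tjp1: the log2 ratio of the sum was 0.94 without Magi3 and -1.14 without Tjp1. Magi3 made up 61.8% of the scaffold sum in WT and 12.7% in ESAM-null, and Tjp1 26.5% and 60.2%. The ratio of Tjp1 to Magi3 within a library, which no scaling can alter, was 0.430 in WT and 4.74 in ESAM-null.

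Within the MAGI family the sum was 5.07 FPKM in the WT library and 2.30 in the ESAM-null library, 2.203-fold lower. Magi3 provided 84.1% of it in WT and 31.9% in ESAM-null, while Magi2 went from 7.93% to 42.2% and Magi1 from 7.99% to 25.9%. Magi3 was 10.6 times Magi2 in WT and 0.757 times Magi2 in ESAM-null, so the family went from a single predominant gene to 3 genes at similar low levels.

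**Figure D3:**
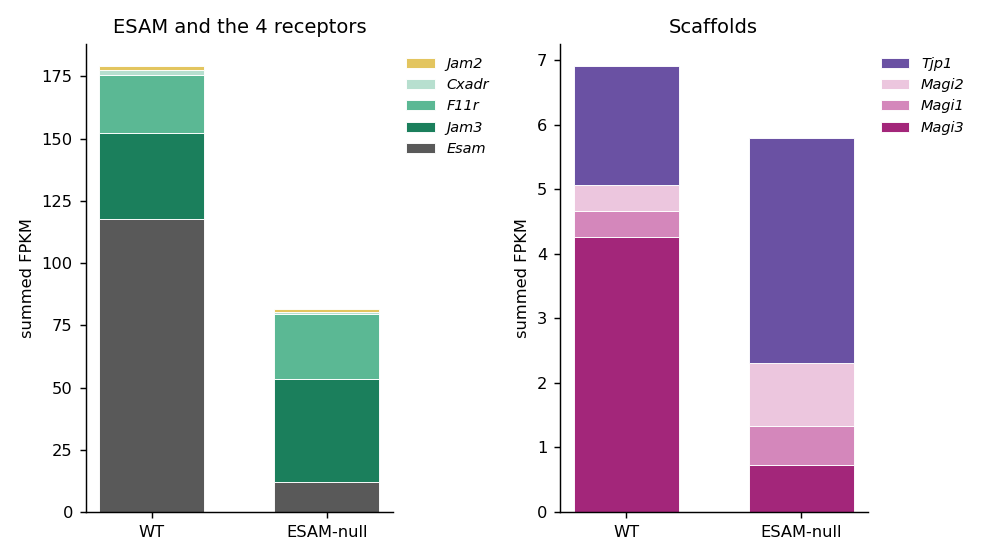
Summed FPKM of Esam with the 4 receptors (left) and of the scaffolds (right) in each library, with 1 bar per library divided by gene. Esam is 65.6% of the left bar in WT and 14.9% in ESAM-null, and Magi3 is 61.8% of the right bar in WT and 12.7% in ESAM-null; Pard3, at 0, is not visible.

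The sequences upstream of Magi3 and Tjp1 are shown because these scaffolds went in opposite directions. Each is the 250 bases before the RefSeq gene start on GRCm38.p6, written 5′ to 3′ on the strand of the gene. The Tjp1 window lies inside the longer GENCODE span given above, before a RefSeq start within it. Capitals mark GC boxes (GGGCGG or its reverse complement CCGCCC) and CCAAT boxes (CCAAT or its reverse complement ATTGG), found by their letters on either strand. A GC box and a CCAAT box can share end bases, and none did in these windows.
Magi3, chr3:104220407-104220656, minus strand: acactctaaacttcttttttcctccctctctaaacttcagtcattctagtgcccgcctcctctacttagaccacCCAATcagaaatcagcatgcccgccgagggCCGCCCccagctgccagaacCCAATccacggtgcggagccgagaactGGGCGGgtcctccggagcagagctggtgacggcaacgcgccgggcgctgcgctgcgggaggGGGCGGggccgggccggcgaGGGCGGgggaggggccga
Tjp1, chr7:65371245-65371494, minus strand: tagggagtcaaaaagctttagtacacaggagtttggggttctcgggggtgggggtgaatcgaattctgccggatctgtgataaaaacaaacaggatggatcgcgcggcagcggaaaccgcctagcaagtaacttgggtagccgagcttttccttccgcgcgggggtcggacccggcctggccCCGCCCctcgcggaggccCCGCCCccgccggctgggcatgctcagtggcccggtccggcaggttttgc
The Magi3 window holds 4 GC boxes and 2 CCAAT boxes, and the Tjp1 window 2 GC boxes and 0 CCAAT boxes. Both are GC-rich, with 66.4% and 63.2% G or C and 22 CpG dinucleotides each, against medians of 52.4% and 6 over 32851 promoter windows of the same length. A GC box was in 32.7% of those windows and a CCAAT box in 33.9%. The GATA motif AGATAA, in 9.99% of all windows, and the ETS motif CCGGAA, in 12.03%, searched on both strands, matched in none of the 9 windows found for 6 of the 9 genes (F11r, Magi1, Magi2, Magi3, Pard3 and Tjp1). These are matches of letters only.

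Other genes of the junction were followed through 8 lists, in which 71 genes were tested, 19 were lower in ESAM-null by 2-fold or more (26.8%) and 6 higher (8.45%), with a median log2 ratio of -0.19. The background shares are the 12.8% and 7.42% given above. Lower calls were concentrated among low levels, as they were over all genes: 8 of 17 listed genes from 1 to 3 FPKM (47.1%, against 30.0% of all genes at that level), 7 of 26 from 3 to 10 FPKM (26.9%, against 16.5%, with 7.66% of all genes there higher) and 1 of 14 at 30 FPKM or more (7.14%, against 1.09%). The gene in that last group is Esam itself, which was lower by design. It is also counted in the 19 of 71.

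Of the other JAM and CAR family receptors, 10 had a row, 3 were tested and 2 were lower, Esam and Vsig2. For all genes tested the share lower was 12.8%. Vsig2, a CAR-like receptor, had 7.93 FPKM in WT (about 72 reads) and was listed at 0 in ESAM-null. Set against the level of 3 reads this is 25.9-fold lower, and the counting interval reaches down to 20.6-fold. The position of Vsig2 relative to the deleted Esam gene was not looked up, and the part of the altered locus in its value was not tested. Mpzl1, a myelin protein zero-like receptor, had 31.2 and 26.1 FPKM. The levels of Jam3 and F11r were of the same order as that of Mpzl1, and no other gene of the list reached 1 FPKM in either library.

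Of the integrin subunits that bind JAM proteins, 6 of 8 were tested, 1 was lower and 0 were higher, with a median log2 ratio of -0.14. That is near the background, since 12.8% of all genes tested were lower and 7.42% higher. Itgam, the Mac-1 subunit that binds JAM-C, had 5.71 FPKM in WT against 2.70 FPKM in ESAM-null, 2.11-fold lower. Its partner Itgb2, shared with LFA-1, had 28.1 and 34.8 FPKM, and Itgb1 had 61.2 and 74.8 FPKM. Itgal, the LFA-1 subunit that binds JAM-A (8.22 and 7.17 FPKM), and Itga4, whose dimer with Itgb1 binds JAM-B (13.4 and 12.6 FPKM), were picked for mention after their values were seen. So were Itgav and Itgb3, whose dimer also binds JAM-A. Itgav had 2.52 and 1.69 FPKM, 1.49-fold lower (1.17 to 1.90), and Itgb3, under 1 FPKM in both libraries, had 0.495 and 0.140 FPKM, 3.54-fold lower (1.55 to 9.01).

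In the PAR and Crumbs polarity list, 13 of 15 genes were tested, 4 were lower and 0 were higher, with a median log2 ratio of -0.12. The shares of all genes tested were 12.8% and 7.42%. All 4 lower genes had a mean from 1 to 3 FPKM, where 30.0% of all genes were lower. Pard3b, the paralog of Pard3, was measured although Pard3 was not: it had 5.31 FPKM in the WT library and 0.548 in the ESAM-null library, 9.69-fold lower (7.07 to 13.3). Prkcz, an atypical protein kinase C of the PAR complex, had 2.32 and 0.803 FPKM. The multi-PDZ scaffolds Inadl (PATJ; 3.81 and 1.83 FPKM) and Mpdz (MUPP1; 3.70 and 1.71 FPKM) were also lower. Prkci, a more abundant atypical protein kinase C of the list, had 7.62 and 9.09 FPKM, 1.19-fold higher (1.03 to 1.39). It was picked for mention after its values were seen. So were the PAR-6 genes Pard6b (4.68 and 6.23 FPKM) and Pard6g (3.47 and 4.78 FPKM), both higher by less than 2-fold. The PAR-6 gene Pard6a (16.1 and 21.1 FPKM) and Llgl1 of the Scribble group (13.6 and 12.6 FPKM) were the most abundant of the list and within 2-fold, and Crb2 and Crb3 were at 0 in both libraries.

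The other plaque and PDZ adaptors gave 4 lower and 0 higher of 9 tested, with a median log2 ratio of -0.52. Of all genes tested, 12.8% were lower and 7.42% higher. The 4 lower genes had means of 0.797 to 5.72 FPKM. The share of all genes lower was 30.0% from 1 to 3 FPKM and 16.5% from 3 to 10 FPKM. Tjp3 (ZO-3), a relative of Tjp1, had 7.96 FPKM in WT against 3.49 FPKM in ESAM-null, opposite in direction to Tjp1. The ubiquitin ligases of the LNX family, which carry PDZ domains and are known to bind CAR or JAM proteins, were lower as well, Lnx2 with 6.89 and 2.52 FPKM and Lnx1 with 1.57 and 0.605 FPKM. Pdzk1 had 1.32 and 0.270 FPKM. The most abundant genes, Pick1 (33.5 and 26.3 FPKM) and Lin7c (18.1 and 24.6 FPKM), were within 2-fold.

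Of 9 listed MAGI partners, 6 were tested, 1 was lower and 0 were higher, with a median log2 ratio of -0.18. This count too is near the background of 12.8% lower and 7.42% higher. Rasl12, a small Ras-like GTPase, had 2.39 FPKM in the WT library and 0.658 in the ESAM-null library. Ctnnb1 (beta-catenin; 128.4 and 123.6 FPKM) and Actn4 (alpha-actinin-4; 63.0 and 66.1 FPKM) were abundant in both libraries and within 2-fold, unlike Magi3.

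The tight junction strand proteins had the only positive median of the 8 lists, 0.34, with 7 of 14 genes tested, 0 lower and 2 higher. Among all genes tested, 12.8% were lower and 7.42% higher. From 3 to 10 FPKM, where the 2 higher genes lie, 7.66% were higher. Marveld2 (tricellulin) had 4.201 FPKM in WT against 11.7 FPKM in ESAM-null, and Cldn13, a claudin known from mouse erythroid tissue, had 1.84 and 10.5 FPKM. Ocln (occludin), a ZO-1 ligand, had 8.67 and 16.4 FPKM, a ratio of 1.90. Cldn25 had 38.3 and 39.3 FPKM, and Cldn1, Cldn2, Cldn3, Cldn6 and Cldn15 were at 0 in both libraries.

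In the adherens junction and nectin list, 10 of the 13 genes with a row were tested, 4 were lower and 2 higher, with a median log2 ratio of -0.33. The background over all genes tested was 12.8% lower and 7.42% higher. Ctnna1 (alpha-catenin) had 27.8 and 13.9 FPKM, Pvrl2 (nectin-2) 13.1 and 6.39 FPKM, Jup (plakoglobin) 9.47 and 3.57 FPKM, and Cd99l2 6.35 and 2.79 FPKM. Pvrl3 (nectin-3) had 1.46 and 10.2 FPKM, and Cdh5 (VE-cadherin), like Cd99l2 outside the naming rule, had 0.954 and 3.33 FPKM. Icam2 (76.0 and 117.0 FPKM) and Icam1 (33.5 and 39.5 FPKM) were within 2-fold, and Cdh1 (E-cadherin) was at 0 in both.

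**Figure D4:**
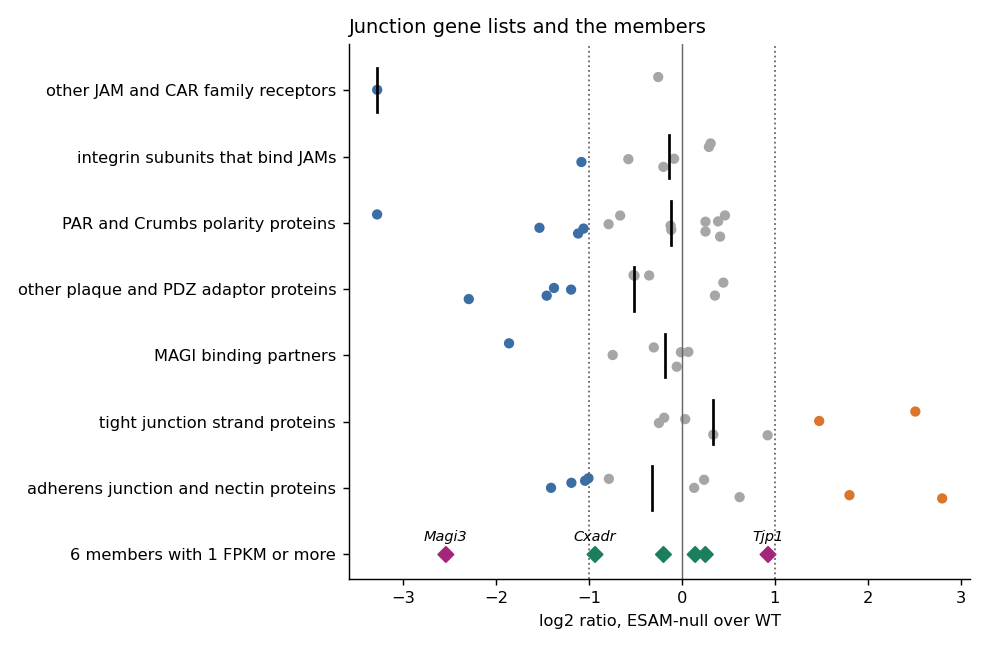
ESAM-null over WT ratio on the log2 scale for the tested genes of 7 of the 8 junction lists and for the 6 tested members (diamonds, green for receptors and magenta for scaffolds), with black lines at the list medians, dotted lines at 2-fold, and blue and orange points for genes past 2-fold lower and higher. Vsig2, at 0 in ESAM-null, is not drawn; tight junction strand proteins have a median of 0.34 and the other plaque and PDZ adaptor proteins of -0.52, and among the members Magi3 is at -2.54, Cxadr at -0.93 and Tjp1 at 0.93.

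Because these junction genes are also used by endothelium, hepatocytes, macrophages, megakaryocytes and erythroid cells, the markers of those cells were set beside them. Over all genes tested, 12.8% were lower and 7.42% higher by 2-fold or more. At low levels, where many of the called markers lie, the shares were larger. They were 30.0% and 19.7% at a mean of 1 to 3 FPKM, and 57.2% and 31.6% at a mean under 1 FPKM. A tested gene with a mean under 1 FPKM passed the filter through its higher library only. The filter thus favors large ratios there, and those shares do not show an effect of level alone. Endothelial markers summed to 996.6 FPKM in the WT library and 1027.8 in the ESAM-null library, mostly Egfl7 (825.6 and 852.1 FPKM), with Emcn at 43.2 and 60.0 FPKM, 1 of 11 tested lower (Sox17), and 1 higher (Cdh5). Under 1 FPKM in both libraries, Flt1 had 0.995 and 0.0963 FPKM (about 57 and 6 reads) and Stab2 0.0401 and 0.492 FPKM (about 3 and 40 reads). Hepatocyte and epithelial markers summed to 126.9 and 158.4 FPKM, mostly Krt18 (48.1 and 82.4 FPKM) and Dlk1 (33.5 and 34.3 FPKM), with 1 of 8 tested lower (Alb), 1 higher (Apoa1) and Cdh1 at 0 in both. Macrophage markers summed to 29.4 and 30.6 FPKM, with Cd68 (14.2 and 19.98 FPKM) and C1qc (3.38 and 5.07 FPKM) the most abundant, 2 of 6 tested lower (C1qa and Marco), 0 higher and Timd4 at 0 in both.

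Megakaryocyte and platelet markers summed to 93.4 and 107.0 FPKM, with Gp9 (57.8 and 65.9 FPKM) and Pf4 (19.5 and 22.8 FPKM) the most abundant, 1 of 8 tested lower (Itga2b), 2 higher (Ppbp and Tubb1) and Gp6 at 0 in both. Erythroid markers summed to 1339 FPKM in WT against 934 FPKM in ESAM-null, with 4 of 9 tested lower (Alas2, Hba-a2, Slc4a1 and Epb4.2) and 1 higher (Klf1). The shares over all genes tested were 12.8% lower and 7.42% higher. Hbb-b2 had 855.0 and 729.8 FPKM and Hba-a2 had 373.2 and 57.1 FPKM, and near-identical globin copies make these 2 values uncertain. Flt1, Stab2 and the markers given here without a level were picked for mention with their values known. At 0 in ESAM-null, with about 6 to 65 reads in WT, were Lyve1 of endothelium, Alb and Ttr of hepatocytes, Emr1, C1qa, Vcam1 and Marco of macrophages and Epb4.2 of erythroid cells, where 3 reads would have given 0.0755 to 0.352 FPKM. Krt8 and Gp1bb were also at 0 in ESAM-null, but with about 1 and 2 reads in WT these genes were too shallow to show a difference. The part of these cells in the values of Magi3, Tjp1 and the other members was not tested.

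By distance on the log2(FPKM + 0.1) scale over the 2 libraries, the genes nearest to Jam3 were AA960436 (34.7 and 41.6 FPKM), R3hcc1 (34.3 and 41.2 FPKM) and Haus8 (35.3 and 41.5 FPKM), at distances of 0.0078 to 0.023. Those nearest to Magi3 were Runx3, a Runt family transcription factor (4.403 and 0.741 FPKM), Zfp40 (4.38 and 0.705 FPKM) and Cul9 (4.05 and 0.768 FPKM), at distances of 0.046 to 0.092. With only 2 libraries, such likeness means a similar level in each library and no more.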

How the data were processed

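RNA-seq was performed on 2 libraries, 1 WT and 1 ESAM-null, of E14.5 FL LSK CD48– cells. RNA was turned into cDNA with a kit for ultra-low input, sheared to 200 to 500 bp and read from 1 end over 75 bp. For each library the authors deposited 1 FPKM value per gene symbol. The submitters' processing notes name the mm10 build, Cuffnorm 2.2.1, TopHat2 2.0.13 with Bowtie2 2.2.3, and SAMtools 0.1.19. The gene annotation, the normalization setting and the handling of multi-mapped reads are not given in the sources, and such reads can affect near-identical genes.

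From the deposited FPKM, each gene's ESAM-null value was divided by its WT value, without a pseudocount. A gene was counted where it had 1 FPKM or more in either library and a ratio of 2-fold or more. Approximate reads came from FPKM, the median annotated transcript length (GENCODE M21, found for 98.0% of genes) and the value of 1 read, estimated from 4004 genes with a single transcript, with an assumed fragment length of 200 bp (SD 80). Values of low genes came within 0.05 of a whole read for 65.7% of them in WT and for 65.6% in ESAM-null. The steps were tested on simulated data.

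The genes and the 14 lists were chosen with earlier results of these data known. Named genes were the 9 members, Esam, up to 4 genes past 2-fold and the 2 most abundant of each pathway list, the 2 most abundant markers and those at 0 in both libraries, and the 3 genes nearest to Jam3 and to Magi3. Itgal, Itga4, Itgav, Itgb3, Cd99l2, Cdh5, the listed junction genes at 0 and the other markers were named after their values were seen. So were Prkci, Pard6b and Pard6g. Some genes and 1 gene list are counted in totals but not reported here. Alternatives were filters, thresholds, pseudocounts, scalings, transcript and fragment lengths, and members left out of sums. The software was Python 3.11.15 with scipy 1.17.1, pandas 2.3.3, matplotlib 3.10.9 and numpy 2.4.6.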

Additional observations from a re-analysis of the deposited data

How the results depend on the processing

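With 1 library per genotype, no library could be left out, and the values rest on the 2 libraries as they are. No paired analysis was possible because each genotype has 1 library and no result comes from a test. Of the 54 single-gene log2 ratios recomputed over Esam and the 8 members above 0, 52 kept their direction, and the other 2 were F11r (-0.14) and Jam3 (-0.03) after rescaling each library to a total of 1000000. That rescaling moved every log2 ratio by -0.28, while median ratio, upper quartile and trimmed mean scaling moved them by -0.01 to 0.01. The number of members lower in ESAM-null was 1 and the number higher 0 as reported. With no filter, or with a filter of 0.1 FPKM, 1 was higher (Magi2). With 5 FPKM in at least 1 library, or 1 FPKM in both, 0 were lower, because Magi3 (4.27 and 0.735 FPKM) did not pass those filters. At 1.5-fold, 2 were lower (Cxadr and Magi3) and 1 higher (Tjp1), and after rescaling 2 were lower (Cxadr and Magi3). With a pseudocount of 1 the log2 ratio of Magi3 was -1.60. The log2 ratio of the summed receptors was -0.10 after rescaling, against 0.18. That of the summed scaffolds was -0.53 after rescaling, 0.94 without Magi3 and -1.14 without Tjp1, against -0.25. Of the genes of the 8 lists, 19 of 71 were lower as reported (26.8%, against 12.8% of all genes). Esam, the deleted gene, is among the lower genes here and in each of the list counts that follow. With 5 FPKM in at least 1 library 10 of 51 were lower (19.6%, against 6.99%), and with 1 FPKM in both 10 of 59 (16.9%, against 7.13%). After rescaling, which moved the ratios of all genes down alike, 22 were lower and 4 higher. The shares over all genes after rescaling are not given here, so these 2 counts have no background beside them. Of 72 counting bounds recomputed with other transcript or fragment lengths, those of Magi1 moved furthest, to -6.41 and 6.18 on the log2 scale with its shortest transcript. Genes with under about 30 reads in either library, among them Cxadr, Magi1 and Magi2, are limited by depth.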
